A study of Mus musculus with 4 samples.

Results

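Rpn2, Ctage5, Asph, Snap23, Zfyve21 and Bnip2 are 6 of the 21552 genes counted in mouse heart, and each carries a cassette exon whose use differed between infarcted and uninjured hearts. They were chosen by the difference in percent inclusion between the groups, so the percentages and levels given for them below are a description of the 4 libraries, and no test on them is offered as support. For each gene, all splicing events with at least 10 reads in every library were taken, together with its row of raw counts. The splicing table lists 85 events for the 6 genes, of 124326 in all, and 82 of them reached 10 reads in each library. For splice sites with several choices the first choice only repeats the others, and 63 events remained without such repeats. The group is named for the endoplasmic reticulum (ER) and vesicles, which holds for most of its genes. Bnip2 is better described as a cytosolic scaffold.

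The hearts came from C57BL/6 mice. In 2 of them the left anterior descending (LAD) coronary artery had been ligated permanently to produce an infarct, and the other 2 were uninjured. Tissue labelled as remote area, away from the infarct, was taken on day 7, and uninjured hearts carry the same tissue label. Polyadenylated RNA was sequenced as single-end reads of 50 bp, and the question was which mRNAs and exons differ in remote myocardium after infarction.

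Proteins that enter the ER are glycosylated and folded there, leave at ER exit sites in COPII carriers, and reach the cell surface when vesicles fuse through SNARE proteins. In cardiac muscle a specialised part of this membrane system, the junctional sarcoplasmic reticulum, stores calcium and releases it at each beat. A cassette exon is one that can be kept in the mRNA or skipped, and a kept exon whose length is a multiple of 3 adds amino acids without moving the reading frame.

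The exons of 5 of the genes are shown with their neighbouring bases because a length that is a multiple of 3 is what they share. Each line runs 5′ to 3′ on the coding strand, with the cassette exon in capitals and up to 20 bases of the joined upstream and downstream exons in lower case. They were read from GENCODE M21 transcripts of the GRCm38 build, matched by exon length and by the lengths of both flanking introns.
Rpn2: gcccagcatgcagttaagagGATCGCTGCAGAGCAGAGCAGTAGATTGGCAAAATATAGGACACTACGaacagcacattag
Ctage5: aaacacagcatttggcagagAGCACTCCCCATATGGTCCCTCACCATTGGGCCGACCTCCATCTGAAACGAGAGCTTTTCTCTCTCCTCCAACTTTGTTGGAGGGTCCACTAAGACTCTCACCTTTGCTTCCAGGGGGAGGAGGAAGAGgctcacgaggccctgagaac
Asph: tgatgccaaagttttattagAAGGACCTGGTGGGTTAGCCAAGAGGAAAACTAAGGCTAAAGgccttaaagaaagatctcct
Zfyve21: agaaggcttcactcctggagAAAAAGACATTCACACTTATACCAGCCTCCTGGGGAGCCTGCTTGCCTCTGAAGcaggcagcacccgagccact
Bnip2: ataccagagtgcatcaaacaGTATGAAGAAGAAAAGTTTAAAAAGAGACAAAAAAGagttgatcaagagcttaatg

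On mm9, the build of the splicing table, the Rpn2 exon lies at chr2:157148959-157149006, the Ctage5 exon at chr12:60277318-60277446 and the Asph exon at chr4:9551507-9551548. The Zfyve21 exon lies at chr12:113063790-113063843 and the Bnip2 exon at chr9:69852113-69852148. Only protein-coding transcripts in which the exon is wholly coding were kept as matches, so that all 6 exons are coding in them is fixed by that choice. Their lengths are 48 nt in Rpn2, 129 nt in Ctage5, 42 nt in Asph, 33 nt in Snap23, 54 nt in Zfyve21 and 36 nt in Bnip2. All 6 lengths are multiples of 3, against 48.8% of the 5519 exons tested in the series and 59.2% of the 2088 tested exons with a mean inclusion between 10% and 90%. In 5 of the 6 genes the exon is no longer than 54 nt, against 13.8% and 17.4% of those sets, a limit taken from the longest of these 5 exons after the lengths had been seen. The exons add 11 codons in Snap23, 12 in Bnip2, 14 in Asph, 16 in Rpn2, 18 in Zfyve21 and 43 in Ctage5. None of them starts at the first base of a codon, so in each gene the joint of the upstream exon with its neighbour falls inside a codon.

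Their place in the protein differs. The Rpn2 exon is coding exon 16 of 17, and only 10 coding nt follow it. In Bnip2 it is coding exon 9 of 10, with 49 coding nt after it, so both exons sit close to the end of the coding sequence. The Zfyve21 exon is coding exon 6 of 8 in a transcript model whose start is incomplete, and the Ctage5 exon is coding exon 20 of 25. The Asph exon is coding exon 4 of 14 in a short Asph transcript, and the Snap23 exon is coding exon 5 of 8. GENCODE also holds protein-coding transcripts of all 6 genes that skip the exon, 7 of them for Asph, 3 each for Ctage5 and Snap23, 2 for Bnip2 and 1 each for Rpn2 and Zfyve21.

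Inclusion of these exons was lower in infarcted hearts in Rpn2, Asph, Snap23, Zfyve21 and Bnip2 and higher in Ctage5. The differences of the group means ran from 17.92 points in Bnip2 to 35.37 points in Snap23, and in none of the 6 genes did the groups overlap. Among all 5519 exons tested, 39.8% did not overlap between the groups, and 6.83% also differed by 15 points or more, 4.33% lower and 2.50% higher in infarcted hearts. The value of 15 points was set after the differences had been seen, and since the genes were chosen for these differences nothing is read from their count. Percent inclusion is the share of corrected reads that support the kept exon, and its intervals are exact binomial (Clopper-Pearson) 95% intervals that cover counting error only.

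**Figure D1:**
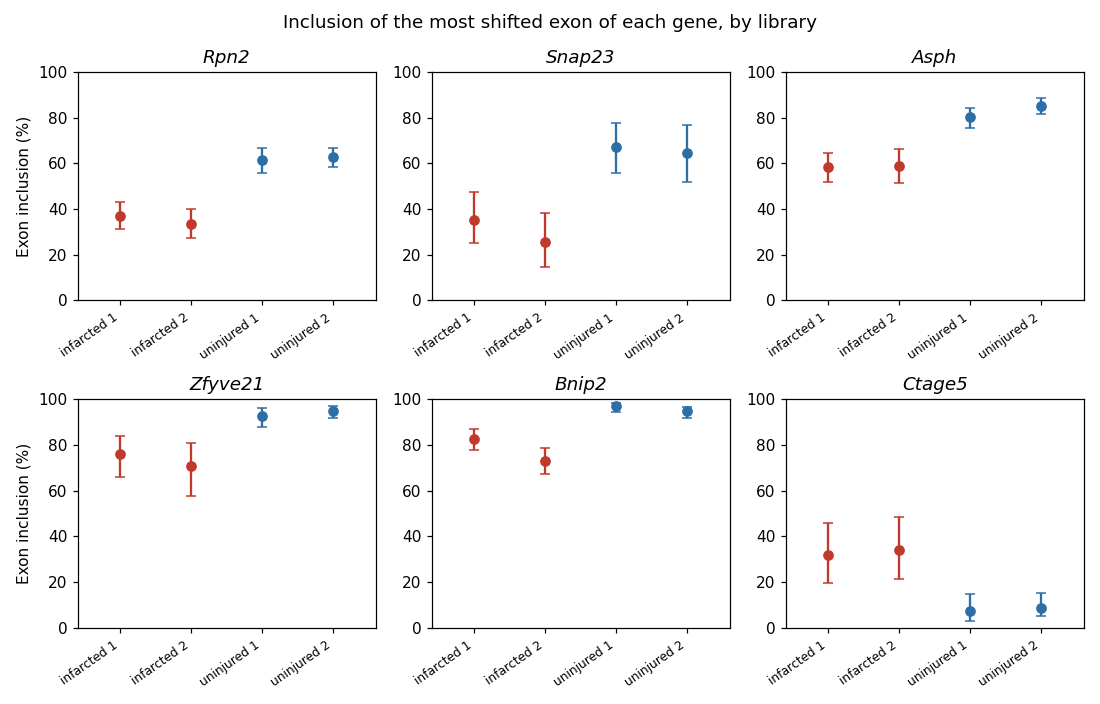
Percent inclusion of the most shifted exon of each gene (y axis) in the 4 libraries (x axis), with exact 95% binomial intervals as bars, infarcted in red and uninjured in blue. Both red points lie below both blue points in Rpn2, Snap23, Asph, Zfyve21 and Bnip2, and above them in Ctage5, where 31.71% and 34.18% stand against 7.43% and 8.75%.

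Rpn2 encodes ribophorin II, a subunit of the oligosaccharyltransferase that attaches N-linked sugar chains to proteins entering the ER. Its 48 nt exon was included at 36.92% and 33.52% in infarcted hearts 1 and 2 and at 61.26% and 62.75% in uninjured hearts 1 and 2. Most Rpn2 mRNA therefore carried the exon in both uninjured hearts and lacked it in both infarcted hearts. The means were 35.2% ± 2.4 (SD, n = 2) and 62.0% ± 1.05, a difference of -26.8 points, and 233 to 533 reads stood behind each value. The best covered exon of the 6 by its lowest library was Bnip2, with Rpn2 next. At the 3′ end of the same exon an alternative donor site adds 29 nt. It was used at 5.56% and 5.56% in infarcted hearts and at 7.45% and 8.98% in uninjured hearts, a difference of -2.66 points. Each infarcted value rests on 38 reads, 2.11 of them for this site, with an interval from 0.644% to 17.7%. The uninjured hearts had 85 and 141 reads.

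Ctage5, annotated today as Mia2, encodes a membrane protein of ER exit sites that works with TANGO1 in the export of large cargo such as collagens. Its 129 nt exon was the exon that went the other way, at 31.71% and 34.18% in infarcted hearts and 7.43% and 8.75% in uninjured hearts. Uninjured hearts thus largely skipped the exon, and infarcted hearts kept it in a sizeable minority of the mRNA. The means were 33.0% ± 1.75 and 8.09% ± 0.933 (SD, n = 2), a difference of 24.9 points. Coverage was the lowest of the 6 genes in the infarcted libraries, with 54 and 53 reads, against 94 and 143 in the uninjured ones. The interval reached from 19.5% to 45.6% in infarcted heart 1 and from 3.05% to 14.7% in uninjured heart 1.

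Ctage5 had further exons that moved by less. A 72 nt exon at chr12:60245686-60245757 was included at 24.88% and 40.58% in infarcted hearts and 20.62% and 18.48% in uninjured hearts, on 78 to 106 reads. The groups did not overlap, but infarcted heart 1 lay close to the uninjured hearts and the difference of 13.2 points came mainly from infarcted heart 2. A 27 nt exon at chr12:60247323-60247349 stood at 79.05% and 90.43% against 94.09% and 94.65%. There it was infarcted heart 1 that stood apart.

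Asph is a compound gene. Its long form is aspartyl/asparaginyl beta-hydroxylase, an ER enzyme, and its short forms include junctin, which links calsequestrin to the ryanodine receptor in the junctional sarcoplasmic reticulum. The 42 nt exon was included at 58.42% and 58.90% in infarcted hearts and at 80.11% and 85.27% in uninjured hearts, on 175 to 415 reads. The infarcted hearts were close to each other and both were below the uninjured ones. The means were 58.7% ± 0.339 and 82.7% ± 3.65 (SD, n = 2), a difference of -24.0 points.

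Among the other Asph exons, a 96 nt exon at chr4:9537990-9538085 was included at 88.65% and 85.44% in infarcted and 90.48% and 96.19% in uninjured hearts, a difference of -6.29 points without overlap. A 48 nt exon at chr4:9525880-9525927 gave 81.46% and 79.60% against 80.02% and 75.36%, and there the groups overlapped. Reads of Asph exons were also set against themselves across the libraries, as corrected inclusion reads per 1000000 counts (RPM). An early exon of 59 nt, at chr4:9563058-9563116, had 8.22 and 7.1 RPM in infarcted and 11.3 and 11.4 in uninjured hearts. It was lower in both infarcted hearts. At the far end of the gene a 99 nt exon, at chr4:9444783-9444881, had 2.34 and 2.58 against 2.07 and 1.4 RPM, and a 151 nt exon, at chr4:9459062-9459212, had 1.54 and 1.67 against 1.23 and 1.0. Both were higher in the infarcted hearts. A 137 nt exon between them, at chr4:9457033-9457169, had 1.18 and 1.55 against 1.34 and 0.908 RPM, with overlap. These 4 exons were chosen after their values had been seen.

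Snap23 encodes a SNARE protein of the plasma membrane, the widely expressed relative of neuronal SNAP25. Its 33 nt exon was included at 35.39% and 25.68% in infarcted hearts and at 67.26% and 64.55% in uninjured hearts. It was kept in most Snap23 mRNA of uninjured hearts and skipped in most of that of infarcted hearts. The means were 30.5% ± 6.87 and 65.9% ± 1.92 (SD, n = 2), a difference of -35.4 points and the widest of the 6. Only 56 to 78 reads covered the exon, and the interval of infarcted heart 2 reached from 14.4% to 38.4%. The next Snap23 event by size, a 45 nt donor site choice with 27 to 38 reads, gave 92.11%, 91.67%, 96.77% and 81.48% in infarcted hearts 1 and 2 and uninjured hearts 1 and 2, with overlap.

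Zfyve21 encodes a protein with a FYVE domain, which binds the lipid phosphatidylinositol 3-phosphate on endosomes. Its 54 nt exon was included at 75.86% and 70.81% in infarcted hearts and at 92.62% and 94.86% in uninjured hearts, on 67 to 278 reads. Nearly all Zfyve21 mRNA carried it in uninjured hearts, and a sizeable part lacked it in both infarcted ones. The means were 73.3% ± 3.57 and 93.7% ± 1.58 (SD, n = 2), a difference of -20.4 points. The deposited read support of this exon was labelled LOW in both infarcted hearts and SOK in both uninjured hearts.

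A choice of acceptor site at the next exon of Zfyve21, at chr12:113065757-113065896, was used at 10.54% and 9.03% in infarcted and 24.61% and 21.04% in uninjured hearts, a difference of -13.0 points on 21 to 59 reads. Both infarcted hearts were again the lower ones, but only 2.85 and 1.9 corrected reads supported the site in them. The intervals overlapped, from 2.35% to 29.2% and 1.17% to 30.4% in infarcted hearts. In uninjured hearts they reached from 12.5% to 43.3% and from 11% to 32.8%. The cassette exon itself has a second acceptor site that adds 3 nt, used at 22.32% and 22.73% in infarcted and 25.07% and 22.28% in uninjured hearts, so among the mRNAs with the exon this choice overlapped between the groups. For both acceptor choices the splicing table holds 1 of its 2 sites here.

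Bnip2 encodes a cytosolic scaffold protein with a BCH domain. Its 36 nt exon was included at 82.62% and 73.09% in infarcted hearts and at 96.93% and 94.62% in uninjured hearts, on 242 to 422 reads. Skipping was rare in uninjured hearts and more frequent in both infarcted ones, most in infarcted heart 2. The means were 77.9% ± 6.74 and 95.8% ± 1.63 (SD, n = 2), a difference of -17.9 points. No other Bnip2 event differed by more than 0.585 points.

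The exon described for each gene is by choice its event with the largest difference among those with enough reads. That the others with enough reads differ by less is fixed by that choice. Beside the 6 exons there were 57 other events with enough reads, and 39 of them differed by no more than 1 point either way. In Rpn2, Snap23 and Bnip2 no other event moved by more than 2.77 points. The largest of the 57 was the 72 nt exon of Ctage5, at 13.2 points. In 46 of the 57 all libraries were above 95% or below 5%, which leaves little room for a difference. These were 11 of the 13 events of Rpn2, 8 of 10 of Snap23, 6 of 12 of Asph, 5 of 8 of Zfyve21, 4 of 5 of Bnip2 and 12 of 15 of Ctage5. Of the 85 listed events, 3 had fewer than 10 reads in some library, 1 in Bnip2 and 2 in Ctage5. The Ctage5 pair is a donor site choice with 8 and 2 reads in infarcted hearts, below the limit, and 15 and 15 in uninjured hearts. Its difference was 25.41 points either way, larger than that of the 129 nt exon, but on too few reads to be used. An acceptor choice of the same gene just inside the limit had 15, 16, 20 and 19 reads and used 1 site in every read.

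**Figure D2:**
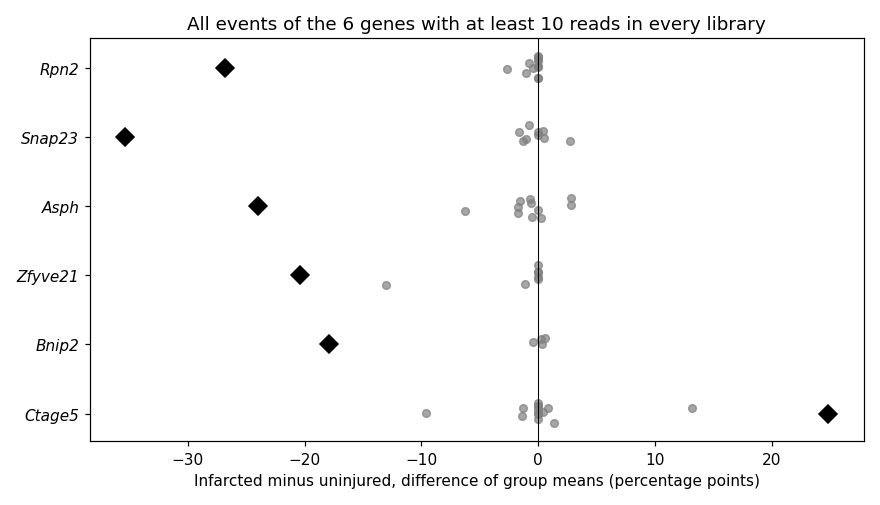
Difference of the group means, infarcted minus uninjured, in percentage points (x axis) for all 63 events of the 6 genes with at least 10 reads in every library, by gene, with the exon described for each gene as a black diamond and the other 57 events in grey. The grey points gather at 0, and the ones farthest out are in Ctage5, at 13.2 points, and Zfyve21, at -13.0 points.

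Across all genes no splicing event passed. The edgeR quasi-likelihood test of the interaction between form and group called 0 of 8269 events at an adjusted p of 0.05 (0% of those tested), with 544 at an unadjusted p under 0.05. Limma on the logit of the inclusion called 0 with 607 at an unadjusted p under 0.05, and a DESeq2 likelihood-ratio test called 0 with 332. On simulated events the edgeR test recovered 28.4% of 8-fold changes of the odds and 97% of 64-fold changes, and 0% of 2-fold changes. Limma on the logit recovered 0% of 2-fold and 8-fold and 3.03% of 64-fold changes, so in that setting it could hardly have called an event. The spread between simulated mice was an assumed value, not estimated from these libraries, and the recovery depends on it. If that spread holds, the absence of calls sets little limit on shifts of moderate size with 2 mice a group.

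An inclusion level can fall because the kept form falls, the skipped form rises, or both. Corrected RPM were therefore set out for each form, and a form is compared only with itself across libraries, because how the reads were corrected is not stated. In all 6 genes both forms differed without overlap between the groups, as did 28.2% of all 5519 exons tested. The same reads make up the percentages by which the genes were chosen, so nothing is read from that count. For Rpn2 the form with the exon was 1.97 and 1.86 RPM in infarcted and 4.26 and 5.33 in uninjured hearts, 2.50-fold lower. The Rpn2 form without it was 3.37 and 3.69 against 2.69 and 3.16, or 1.21-fold higher. By fold of these RPM the kept form thus differed by far the more. All reads at this exon, before scaling, were 267 and 233 in infarcted and 333 and 533 in uninjured hearts. At an earlier 96 nt exon of Rpn2, at chr2:157115264-157115359, they were 249 and 156 against 128 and 205. The balance of reads along the gene thus differed between the groups, and its part in these folds was not tested.

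In Zfyve21 too the kept form differed more by fold, at 1.5 and 1.13 RPM against 3.17 and 4.20, which is 2.80-fold lower. Its skipped form was 0.478 and 0.466 against 0.253 and 0.228, or 1.97-fold higher. Bnip2 showed the reverse order of folds. Its kept form was 4.84 and 4.22 against 6.48 and 6.36, 1.42-fold lower, whereas its skipped form was 1.02 and 1.55 against 0.205 and 0.362, 4.54-fold higher. These folds are not relative to the level of the whole gene. That level was 2.17-fold lower in Zfyve21 and had a log2 fold change of -0.13 in Bnip2, and its part in the order of the folds was not tested.

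Asph and Snap23 lay between these. The Asph form with the exon was 2.80 and 2.46 RPM against 5.45 and 5.64, 2.11-fold lower, and the form without it was 1.59-fold higher. Snap23 gave 0.552 and 0.343 against 1.08 and 0.648 with the exon, 1.93-fold lower, and 1.01 and 0.992 against 0.526 and 0.356 without it, 2.27-fold higher. Ctage5 was the mirror of the others. Its kept form was 0.342 and 0.432 against 0.146 and 0.199, 2.24-fold higher, and its skipped form was 0.738 and 0.832 against 1.82 and 2.08, 2.48-fold lower.

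**Figure D3:**
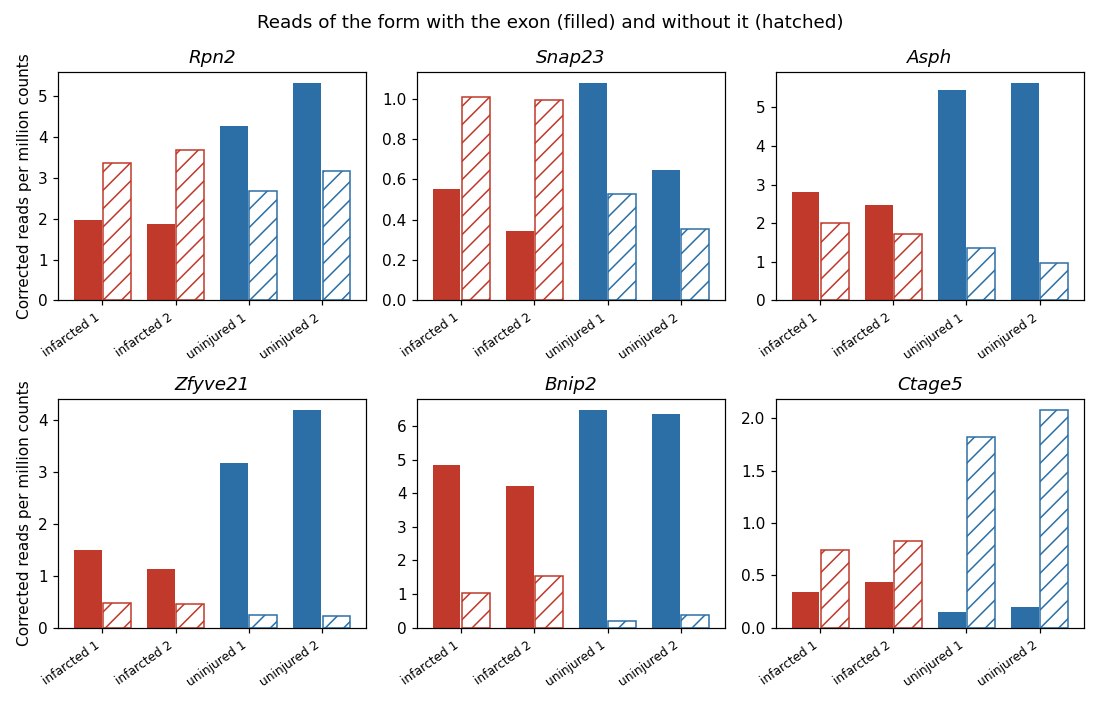
Corrected reads per 1000000 counts (y axis, from 0) of the form with the exon (filled bars) and without it (hatched bars) in each of the 4 libraries (x axis), infarcted in red and uninjured in blue. By fold the filled bars differ more in Rpn2 (2.50-fold) and Zfyve21 (2.80-fold) and the hatched ones in Bnip2 (4.54-fold), and in Ctage5 the filled bars are higher and the hatched bars lower in infarcted hearts.

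The levels of the whole genes did not follow the exons in any common way. In the edgeR quasi-likelihood test over 13905 genes, with Benjamini-Hochberg adjustment, 2 of the 6 genes, Zfyve21 and Ctage5, were called lower in infarcted hearts and 0 higher, with 0 higher at an unadjusted p under 0.05 and 0 in DESeq2. Of all genes tested, 14.6% were called lower and 18.3% higher, and 33.0% in either direction. The groups did not overlap in 5 of the 6 genes, against 70.0% of all genes tested. As the libraries are the ones from which the genes were chosen, nothing is read from these counts. In bulk tissue, fewer cells of a type and less RNA per cell cannot be told apart.

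Zfyve21 stood at 10.8 and 12.7 counts per 1000000 (CPM) in infarcted hearts 1 and 2 and at 21.3 and 29.6 in uninjured hearts 1 and 2. Both infarcted hearts were far below both uninjured ones, with a log2 fold change of -1.12 ± 0.22 (SE), or 2.17-fold lower, at an edgeR adjusted p of 0.00221. Without uninjured replicate 2 the log2 fold change was -0.87 with an edgeR adjusted p of 0.0724. Ctage5 stood at 47.3 and 42.5 CPM against 71.0 and 65.3. It was again lower in both infarcted hearts, with a log2 fold change of -0.60 ± 0.18, or 1.52-fold lower, at an edgeR adjusted p of 0.0225. Leaving out any single library ended this call, with edgeR adjusted p of 0.0512 without infarcted replicate 1, 0.187 without infarcted replicate 2, 0.0600 without uninjured replicate 1 and 0.0777 without uninjured replicate 2. Scaling by library totals ended it as well, at a log2 fold change of -0.26. The Ctage5 count covers the whole Mia2 locus, including its longer forms.

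Rpn2 was at 97.0 and 98.2 CPM in infarcted and 69.4 and 84.8 in uninjured hearts, a log2 fold change of 0.34 ± 0.19 with an edgeR adjusted p of 0.192. Snap23 was at 40.2 and 38.7 against 38.5 and 29.4, with 0.22 ± 0.19 and an edgeR adjusted p of 0.425. Both were a little higher in the infarcted hearts without passing the test, but with library totals as the scale both were called higher, at log2 fold changes of 0.69 and 0.56. That scaling moved the median log2 fold change of all genes from 0.02 to 0.36. Bnip2 was at 72.0 and 69.5 against 73.2 and 82.0 CPM, with -0.13 ± 0.18 and an edgeR adjusted p of 0.614, and its sign turned with library totals. Asph was at 68.6 and 66.2 against 72.1 and 58.3 CPM, with 0.05 ± 0.19 and an edgeR adjusted p of 0.871, and its groups overlapped. The sign of the Asph value turned under removal of the transcript length trend and without infarcted replicate 1 or uninjured replicate 2.

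Per kilobase of exon length, and so on a scale that can be compared between genes, Rpn2 and Bnip2 had the highest levels. Their mean levels in uninjured hearts were 17.4 and 22.5 CPM per kb, followed by Zfyve21 at 13.3, Snap23 at 7.91, Ctage5 at 6.07 and Asph at 4.05. In infarcted hearts the order was Rpn2 at 22, Bnip2 at 20.5, Snap23 at 9.18, Zfyve21 at 6.11, Asph at 4.18 and Ctage5 at 4.0. Rpn2 and Bnip2 exchanged places, as did Zfyve21 and Snap23. In infarcted hearts Asph, at 4.26 and 4.11, and Ctage5, at 4.21 and 3.78, were not separated. The lengths are the union of all annotated exons, which for Asph and Ctage5 includes exons that many of their mRNAs lack.

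**Figure D4:**
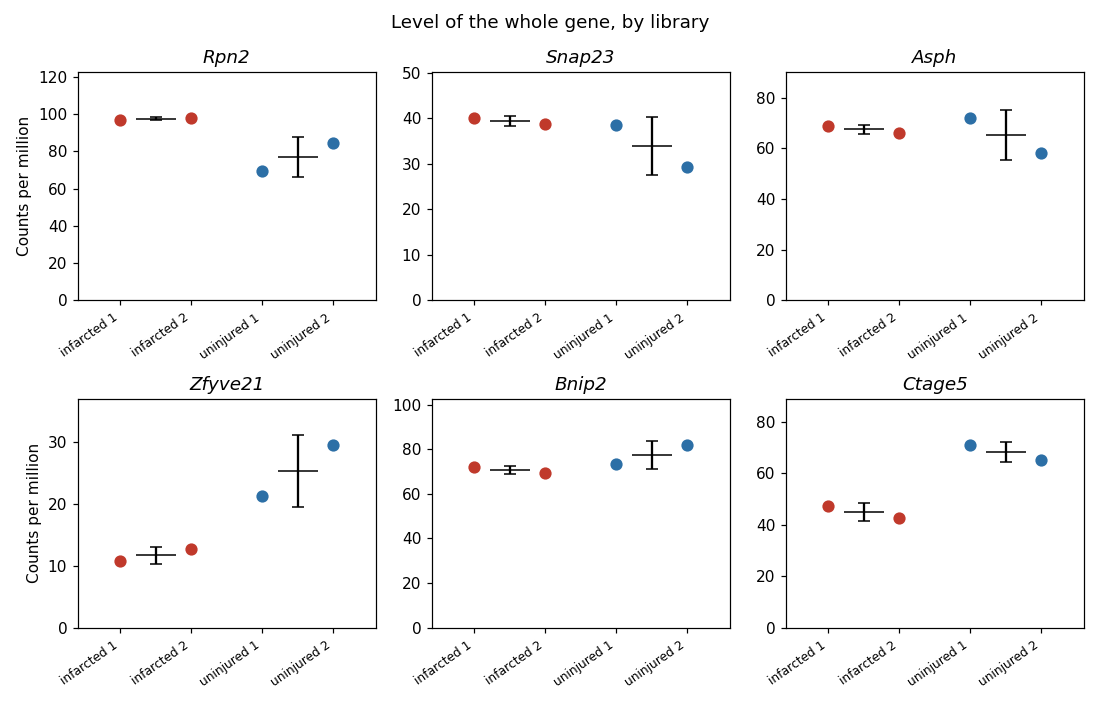
Level in CPM of each whole gene (y axis, from 0) in the 4 libraries (x axis), infarcted in red and uninjured in blue, with the mean and SD of each group of 2 as a black line and bar. The groups stand well apart in Zfyve21 and Ctage5 and overlap in Asph.

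The tissue was myocardium by its markers, and its cell makeup moved with the groups. Library totals were 35715115 to 70885393 counts, with 36.7% to 48.4% from mitochondrially encoded genes, and the 2 mice per group differed with a common biological coefficient of variation of 19.3%. All 10 cardiomyocyte markers were found in every library, and 6 of them fell and 0 rose, their summed level being 45200 and 39800 CPM in infarcted against 69300 and 83900 in uninjured hearts. Of 10 fibroblast markers 7 rose and 0 fell, with sums of 8150 and 6580 against 889 and 849 CPM. All 10 macrophage and monocyte markers rose, with sums of 436 and 473 against 160 and 126 CPM. Atrial markers summed to 317 and 2120 against 90.8 and 50.8 CPM. Sln and Mybphl had 0 counts in infarcted heart 1, and 1457 and 1123 in infarcted heart 2. Myl4 and Myl7 were high in infarcted heart 2 alone, at 361 and 132 CPM against 1.34 and 0.08 in infarcted heart 1. Nppa and Dkk3 were higher in both infarcted hearts. Of the 4 atrial markers tested edgeR called 0, with 1 at an unadjusted p under 0.05, whereas DESeq2 called 4 higher, and infarcted heart 2 held most of their level. Smooth muscle and pericyte markers rose in 3 of 7, erythroid markers fell in 4 of 5 and lymphocyte markers in 1 of 7. Of 8 endothelial markers edgeR called 0, with 3 at an unadjusted p under 0.05, and DESeq2 called 2 higher. Of 4 Schwann cell markers edgeR and DESeq2 called 0, with 0 at an unadjusted p under 0.05. Without uninjured replicate 2 the edgeR calls were 0 for cardiomyocyte, 4 for fibroblast and 2 for macrophage markers. The part of these cell types in the exon shifts and levels of the 6 genes was not tested.

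Around these genes stand the pathways they work in, given as 7 lists of genes of which 137 were tested. Over the 7 lists 17 genes rose and 10 fell, and with library totals as the scale 48 rose and 1 fell, while without uninjured replicate 2 edgeR called 0 and DESeq2 called 7 higher and 3 lower. Over all genes tested 2546 rose and 2037 fell, or 4386 and 786 with library totals. The median log2 fold change of a list is read beside 0.02 for all genes.

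Among the partners of Rpn2, the 11 tested genes of the oligosaccharyltransferase had a median of 0.04, with 1 higher and 1 lower. Stt3a, a catalytic subunit, rose from 26.5 ± 4.54 to 57.1 ± 0.693 CPM (SD, n = 2), a log2 fold change of 1.11 ± 0.19 at an edgeR adjusted p of 0.00103. Tmem258, a small subunit, fell by 0.83 on the log2 scale at an edgeR adjusted p of 0.0120. Stt3b, the other catalytic subunit, had a log2 fold change of 0.34 that did not pass. Of 23 genes of the ER translocon and signal peptidase 2 rose and 2 fell, with a median of -0.06. They include Sec61a1, the channel subunit through which proteins enter the ER, at 1.07 ± 0.19, Ssr1, of the associated TRAP complex, at 0.56, and Srp14, of the signal recognition particle, at -0.60.

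Of 24 ER chaperones and genes of the unfolded protein response 3 rose and 2 fell, with a median of 0.07. Edem1, which hands misfolded glycoproteins to degradation, rose by 1.22 ± 0.21 on the log2 scale, and Pdia4, a disulfide isomerase, by 0.78. Herpud1, a component of ER-associated degradation that stress induces, fell by 0.83. Genes of this list thus moved in both directions.

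In ER export and COPII, where Ctage5 acts, 5 of 29 genes rose and 1 fell, with a median of 0.13. Sec16b, a scaffold of ER exit sites, rose from 2.25 ± 0.390 to 9.12 ± 2.51 CPM, a log2 fold change of 2.02 ± 0.28 at an edgeR adjusted p of 0.000215. Kdelr3, a receptor that returns ER residents from the Golgi, rose by 1.60 on the log2 scale, and Sec24d, a cargo adaptor of the COPII coat, by 0.90. The level of Ctage5 itself was lower, as given above.

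In the junctional sarcoplasmic reticulum, around the short forms of Asph, 0 of 9 genes rose and 2 fell, with a median of -0.11. Hrc, a calcium-binding protein of the lumen, fell from 1300 ± 254 to 468 ± 74.4 CPM, a log2 fold change of -1.48 ± 0.25 at an edgeR adjusted p of 0.000805. Trdn, the triadin that anchors calsequestrin, fell by 0.60. Jph2, a tether of the sarcoplasmic reticulum to the surface membrane, had a log2 fold change of -0.61 that did not pass. Cardiomyocyte markers fell in the same hearts, as given above.

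Beside Snap23, 5 of 22 plasma membrane SNAREs and partners rose and 2 fell, with a median of -0.01. The syntaxins Stx2 and Stx11 rose by 0.76 and 1.15 on the log2 scale. Snap25 and Stx19 were too low to test. Beside Zfyve21, 1 of 19 genes with FYVE domains or acting on endosomal phosphatidylinositol 3-phosphate rose and 0 fell, with a median of 0.03. The gene that rose was Ankfy1, at 0.54, and Plekhf1 and Pik3c3 had log2 fold changes of -0.68 and -0.46 that did not pass.

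**Figure D5:**
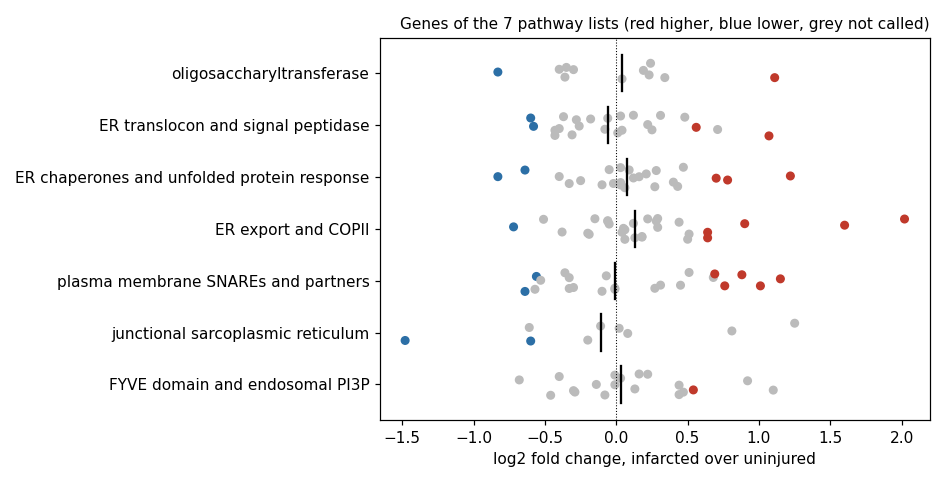
Log2 fold change of infarcted over uninjured hearts (x axis) for the 137 tested genes of the 7 pathway lists (y axis), red where called higher, blue where called lower and grey where not called by edgeR, with the list median as a black bar. The medians of the 7 lists lie between -0.11 and 0.13.

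Exons of other genes with nearly the same 4 percentages were looked up as a description, by the smallest distance over the 4 libraries among 23470 exons. Nearest to the Rpn2 exon was a 66 nt exon of Lrrfip1, at 37.50% and 32.02% in infarcted and 62.28% and 54.24% in uninjured hearts. A 72 nt exon of Myef2, a DNA-binding repressor, came close to the Asph exon at 53.12%, 58.14%, 80.00% and 78.57%. A 54 nt exon of Exoc1, a subunit of the exocyst that tethers vesicles to the plasma membrane, was among the 2 nearest to the Snap23 exon, at 33.80%, 26.89%, 75.32% and 71.40%. So was a 21 nt exon of Ap1b1, a subunit of the AP-1 adaptor of clathrin-coated vesicles, at 37.36%, 27.28%, 67.75% and 54.55%. These lie in the vesicle pathway as well, but they were found by the nearness of their values alone.

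For Ctage5 the nearest was a 100 nt exon of H2afy, which encodes the histone variant macroH2A1, at 34.15% and 31.34% against 11.86% and 11.36%. For Zfyve21 it was a 60 nt exon of Usp47, a ubiquitin protease, at 75.61% and 67.90% against 89.29% and 91.84%. Exons of Rpain, an importer of replication protein A, were among the 2 nearest for both Zfyve21 and Bnip2, the second of them at 81.82% and 77.78% against 95.45% and 93.26%. The lowest coverage of these exons ranged by gene from 18 reads in Myef2 to 55 in Lrrfip1, and likeness over 4 libraries says only that the values are near.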

How the data were processed

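Poly-A RNA from hearts of 2 infarcted and 2 uninjured C57BL/6 mice was sequenced. The authors deposited raw counts per Ensembl gene, not normalized, and a splicing table with percent inclusion per event, to which a text column adds read support and corrected inclusion and exclusion reads of each form; the percent values equal those from the reads within 0.05 points. The quality codes in that text column, such as B2 for the 42 nt Asph exon in all 4 libraries, were not used to choose events. Coordinates are on mm9, per the submitters' processing notes. For the aligner, counter, event tool, read correction and strand the sources used here name nothing, which leaves overlapping antisense genes and near-identical copies uncertain. Ctage5 was matched to its count row under its current symbol Mia2.

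Gene counts were tested in edgeR 4.0.16 (TMM, filterByExpr by group, robust quasi-likelihood F-test, R 4.3.3) on 13905 genes, with calls at 0.05 after Benjamini-Hochberg adjustment. CPM use TMM library sizes, and standard errors were derived from the fold change and its F statistic. Events needed 10 reads in every library and 5 of each form over all libraries (5519 exons and 2750 splice sites), with corrected reads rounded. Limma 3.58.1 and DESeq2 1.42.0 served as alternatives. The fits leave 2 residual degrees of freedom. Simulated data with known changes were used to check them: of 2-fold and 4-fold gene changes 56% and 99% were recovered, with 3 false calls. Replicate numbers were not taken as pairs.

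The 6 genes, the pathway and marker lists and the tests were chosen with earlier results of these data known. Named are all 6 genes, for each the event with the largest difference of group means and up to 2 further events, the 2 nearest exons of other genes, and up to 3 genes per list with the smallest p. Some of the items this rule takes are not reported here. Other events or genes named were chosen after their values were seen. Of 226 list symbols, 2 (Spcs3 and Vamp7) were not matched. Exon sequences come from GENCODE M21 transcripts, matched by exon and intron lengths, with no coordinate converted between builds.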

Additional observations from a re-analysis of the deposited data

How the results depend on the processing

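With 0.5 reads added to each form or reads pooled within a group, the difference of the Snap23 exon was -34.8 and -34.7 points and that of the Bnip2 exon -17.9 and -17.3. With single libraries left out they ran from -40.2 to -30.5 and from -22.7 to -13.2. Leaving out 1 of 2 mice cannot turn the direction of groups that do not overlap, and a minimum of 20 reads removed none of the 6 exons, so neither says anything about stability. Genes called higher numbered 2546, or 4386 with library totals as the scale, and 102 to 2144 with single libraries left out, the lowest without uninjured replicate 2. Genes called lower numbered 2037, or 786 with library totals and 8 to 1824 with single libraries left out. DESeq2 without single libraries gave 1359, 1303 and 1161 higher genes without infarcted 1, infarcted 2 and uninjured 2, and 1158, 851 and 602 lower. Of the 6 genes, those called higher went from 0 to 2 with library totals and those called lower from 2 to 1, and to 0 to 1 with single libraries left out, in edgeR and DESeq2 alike. The Asph level reversed to -0.21 with the length trend removed, and over single libraries left out it ran from -0.11 without uninjured replicate 2 and -0.06 without infarcted replicate 1 to 0.20 without uninjured replicate 1 (in DESeq2 -0.12, -0.02 and 0.18). The Bnip2 level reversed to 0.21 with library totals. The cause of these changes was not tested. Library totals, the length trend and DESeq2 with single libraries left out were added after seeing the data. With the replicate number as a block, edgeR called 2950 genes higher, 2340 lower and 0 events (481 at an unadjusted p under 0.05), and the call of none of the 6 genes changed. Deviations from the group means of same-numbered libraries correlated at 0.11, over only 2 pairs. Depth limits the exon values most in Ctage5 and Snap23, with 53 to 143 reads.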
